A study of Mus musculus with 9 samples.

Results

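The castration response of young bone was read from 3 arrays, YB1, YB2 and YB3, which were chosen by their titles and are 3 of the 9 two-colour arrays of the series. Each array set bone RNA of 1 castrated C57BL/6 mouse against that of its matched sham-operated partner. Both were 17 weeks old, surgery at 7 weeks of age being the only treatment named. YB1 and YB2 carried the castrated mouse in Cy5, whereas YB3 carried it in Cy3. The other 6 arrays compared mice of the same strain and surgery, 3 of them with young marrow RNA at 17 weeks and 3 with old specimens at 59 weeks that the labels call bone marrow. The bones were femora, tibiae and humeri, and according to the design text marrow was taken out of the bone for the young mice only. A log ratio holds no level, so the labelled tissue could not be checked against the levels of its defining genes.

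Castration removes the testes, the main source of androgens. Androgens act on bone directly and after conversion to oestrogen, and their loss lowers bone mass in rodents and in men. Bone is also a site where B lymphocytes form, in niches of stromal and endosteal cells that supply interleukin 7, and sex steroids are known to restrain that process.

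The deposited values are log ratios with no stated direction, read here as log2. All 9 descriptions speak of castrated against sham, so a ratio of castrated over sham on every array is the likely reading and the one used unless another is named. The other reading, Cy5 over Cy3, turns the sign of YB3 and is called the channel reading. YB1 and YB2 are the same under both. The arrays held values for 10310 features (YB1), 10995 (YB2) and 10916 (YB3) of 11552, the spread over features being an SD of 0.22, 0.29 and 0.27. Across features, the deposited ratios of YB1 correlated with those of YB2 at r = 0.311 and with those of YB3 at r = 0.146, while YB2 and YB3 gave r = -0.101. Features are not independent replicates, and these correlations are descriptions. Of 8735 features with 3 values, 2826 (32.4%) had YB1 and YB2 on one side of 0 and YB3 on the other, against 2126 (24.3%) with 1 sign on all 3 arrays. The number of mouse pairs, 3, limits the precision. The standard errors and p-values rest on the spread within all 3 groups, the 6 marrow and old arrays included, and not on that of the bone arrays alone.

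**Figure D1:**
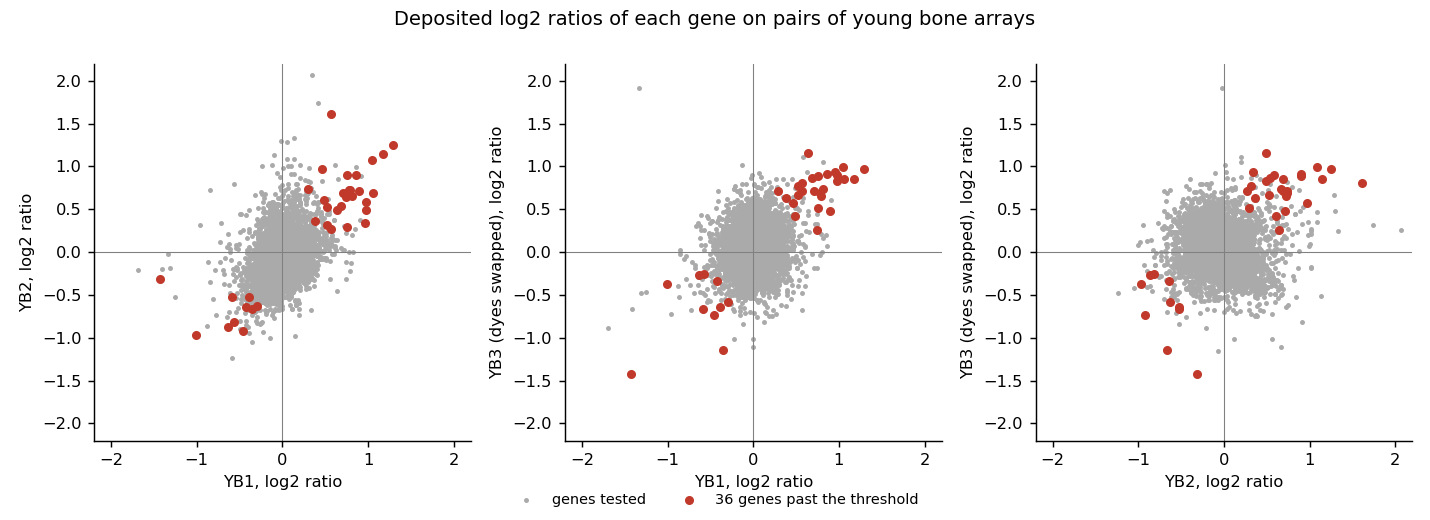
Deposited log2 ratio of each gene (features averaged) on 1 young bone array against another, for the 3 pairs of arrays; grey points are genes tested and red points the 36 genes past an adjusted p of 0.05. The red genes lie at the lower left and upper right of all 3 panels, while the grey cloud is stretched along the diagonal for YB1 and YB2 and not for YB2 and YB3.

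Under the castrated-over-sham reading 23 of 8885 features (0.259%) passed an adjusted p of 0.05, 20 of them higher and 3 lower after castration. They comprise 17 features of 16 named genes and 6 features without a gene name here. With the features of a gene averaged, 26 of 4775 genes rose (0.545%) and 10 fell (0.209%), and gene values below come from this fit. Of these 36 genes, 16 also had a feature past the threshold in the feature fit. They were Il7r, Vpreb3, Bach2, Strn3, Igfbp5, Fcrla, Cecr2, Sbk1, Scd1, Blk, Lef1, Pou2af1, Glcci1, Siglecg, Bcl6 and Slpi. The rest passed only in the fit of averaged genes. For a gene with 1 feature both fits use the same values, and only the set tested differs. All 36 had 1 deposited sign on YB1, YB2 and YB3. Under the channel reading the same fits called 0% of features and 0% of genes, where 606 features and 350 genes had an unadjusted p under 0.05 and the smallest adjusted p were 0.619 and 0.308. The fits hold a dye term shared by all 9 arrays. Under the channel reading that term takes up a response with 1 deposited sign in all groups. Channel values of such genes are drawn toward 0 by construction, and they are not means of the bone arrays with YB3 turned. The 0 calls therefore do not show an absence of response under that reading. Of the 36 genes, 17 had a fitted channel value of the same direction. Among the 23 features no channel value exceeded 0.34 in size, and the smallest castrated-over-sham value was 0.59. The feature count of 23 became 6 without YB1, 14 without YB2, 1 without YB3, 52 without old array 1, 80 without old array 3, 3 in a fit of the bone arrays alone and 1 after the arrays were scaled to a common spread. The gene count of 36 became 16 without YB1, 7 without YB3, 19 without young marrow array 1 and 62 without old array 3. All 36 genes kept their sign in each of the 9 fits that left out 1 array.

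**Figure D2:**
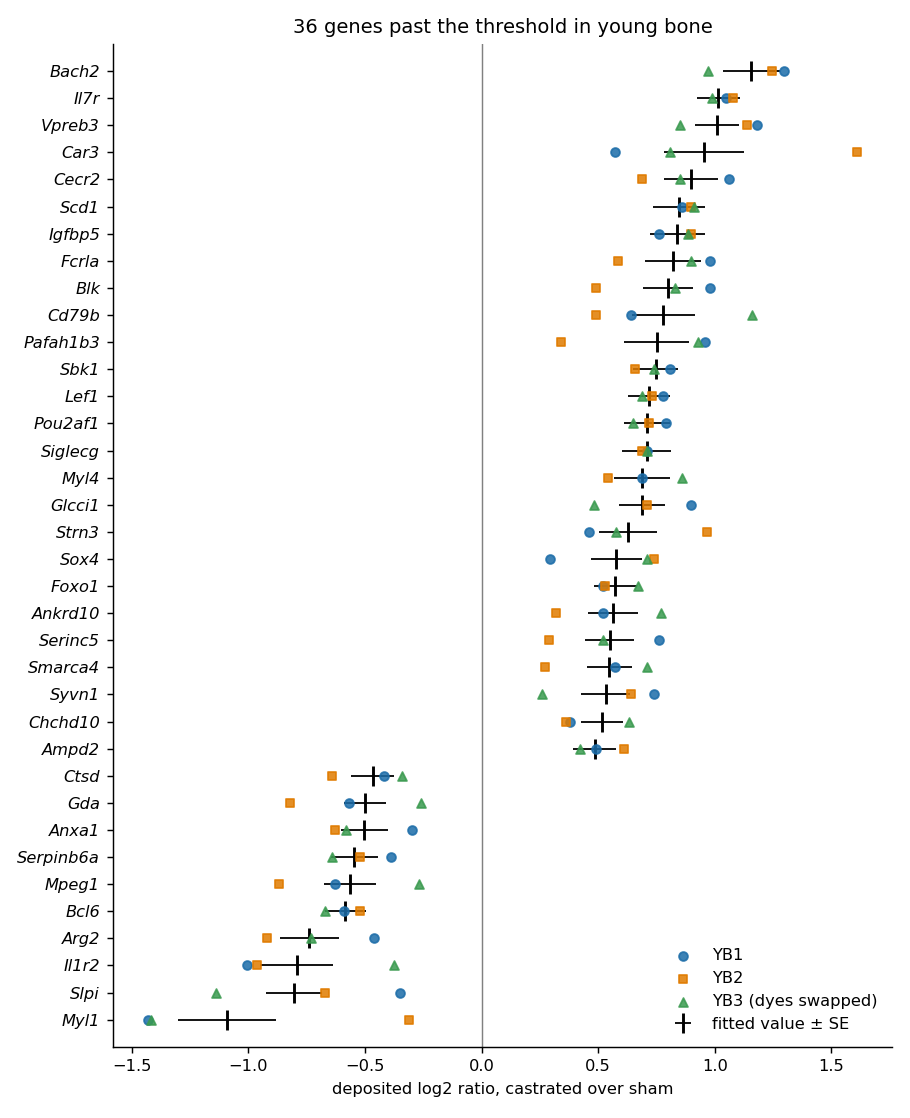
Deposited log2 ratios (horizontal axis) of the 36 genes past the threshold on YB1, YB2 and YB3 (coloured points), with the fitted castrated-over-sham value and its standard error (black). Bach2, Il7r and Vpreb3 head the higher genes at 1.16, 1.02 and 1.01, and Myl1 is the lowest at -1.09, with YB2 at -0.31 apart from the other arrays.

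Genes of the B lymphocyte lineage were 9 of the 26 that rose. Of 18 listed B-lineage genes measured, 9 rose and 0 fell, beside 0.545% of all genes tested that rose. This list and the others below were written with earlier results of these data known, so their counts are descriptions. Il7r, the receptor chain that carries the interleukin 7 signal into lymphoid progenitors, had log2 ratios of 1.05, 1.08 and 0.99 on YB1, YB2 and YB3. The arrays were almost level, and the fitted value was 1.02 ± 0.09 (SE, n = 3, adjusted p = 0.00053), a 2.02-fold ratio. Vpreb3, a protein of the early B-cell receptor assembly, had 1.18, 1.14 and 0.85, with a fit of 1.01 ± 0.10 (adjusted p = 0.00053). The swapped array was the lowest of the 3 for Vpreb3. Bach2, a transcriptional repressor that acts in B-cell development, was measured by 2 features, one at 1.48, 1.58 and 1.05 and the other at 1.11, 0.91 and 0.89. Both features of Bach2 passed on their own, and their average gave 1.16 ± 0.12 (adjusted p = 0.00122). Il7r, Vpreb3 and Bach2 had no array near 0.

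The RefSeq promoter table (build GRCm38.p6) held 19 of the 26 genes that rose and 9 of the 10 that fell. The 250 bases before the start site were searched on both strands for CAGCTG, an E-box that E2A and MyoD family factors can bind, and CCCNNGGG, the core of the EBF1 site. Both read the same on either strand. CAGCTG was found before 4 of the 19 genes that rose (21.1%), 3 of the 9 that fell (33.3%) and 12.7% of the 3816 tested genes that have a promoter in it. CCCNNGGG was found before 1 of 19 (5.3%), 1 of 9 (11.1%) and 18% of the same sets. Among the measured B-lineage genes, 2 of 14 had CAGCTG (14.3%) and 3 of 14 had CCCNNGGG (21.4%). In the muscle list, searched after its values were seen, the counts were 7 of 11 (63.6%) and 4 of 11 (36.4%). Of all 27025 genes listed with a promoter, 14.7% had CAGCTG and 13.4% had CCCNNGGG. A gene with several windows was counted if any of them held the motif. A match is a description of letters and not a binding site. The windows of 3 genes are printed 5′ to 3′ on the gene's strand, because Il7r and Foxo1 rose and belong to the B-cell programme while Myl1 fell the most; capitals mark a match. Il7r lies on the minus strand at chr15:9529877-9530126 and holds neither motif, Foxo1 lies on the plus strand at chr3:52268087-52268336 with CCCNNGGG at position -91 from the start, and Myl1 lies on the minus strand at chr1:66945057-66945306 with CAGCTG at position -224.
Il7r: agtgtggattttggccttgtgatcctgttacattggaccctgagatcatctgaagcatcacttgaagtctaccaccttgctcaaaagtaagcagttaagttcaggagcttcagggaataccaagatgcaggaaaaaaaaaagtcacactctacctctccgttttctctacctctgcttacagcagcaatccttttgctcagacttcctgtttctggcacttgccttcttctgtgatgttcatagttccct
Foxo1: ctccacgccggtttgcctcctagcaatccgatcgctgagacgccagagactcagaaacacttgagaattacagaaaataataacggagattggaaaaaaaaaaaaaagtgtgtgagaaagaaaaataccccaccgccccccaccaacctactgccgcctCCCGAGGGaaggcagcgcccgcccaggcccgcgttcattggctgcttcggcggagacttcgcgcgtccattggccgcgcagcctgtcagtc
Myl1: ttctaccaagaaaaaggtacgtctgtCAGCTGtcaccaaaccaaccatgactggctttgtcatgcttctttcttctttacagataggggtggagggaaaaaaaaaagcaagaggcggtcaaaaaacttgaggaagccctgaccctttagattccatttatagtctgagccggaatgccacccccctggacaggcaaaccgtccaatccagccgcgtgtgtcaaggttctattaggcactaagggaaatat

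Further regulators and receptor components of the B lineage rose. Foxo1, the transcription factor that switches on Il7r and recombination genes in B-cell precursors, was measured by 4 features whose fitted values ran from 0.48 to 0.77. None of the 4 passed alone, while their average passed at 0.52, 0.53 and 0.67 on YB1, YB2 and YB3, with a fit of 0.57 ± 0.09 (adjusted p = 0.0149). Averaging therefore decided the call for Foxo1, and all its deposited values on YB1 to YB3 were above 0. Pou2af1, the B-cell coactivator of octamer-binding factors, had 0.79, 0.72 and 0.65 and a fit of 0.71 ± 0.10 (adjusted p = 0.0059). Blk, a Src-family kinase of the B-cell receptor, had 0.98, 0.49 and 0.83, YB2 being the low one, with a fit of 0.80 ± 0.11 (adjusted p = 0.00497). Fcrla, a B-cell protein related to Fc receptors, had 0.98, 0.585 and 0.90 and also its lowest value on YB2, with a fit of 0.82 ± 0.12 (adjusted p = 0.00714). Cd79b, a signalling chain of the B-cell receptor, had 0.64, 0.49 and 1.16, with a fit of 0.78 ± 0.14 (adjusted p = 0.0236) and a channel value of -0.33. For Cd79b the swapped array was far above the other pair. In the feature fit Cd79b did not pass (adjusted p = 0.0521), whereas Pou2af1, Blk and 1 Fcrla feature did.

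Siglecg, an inhibitory lectin receptor of B cells that the list did not hold, rose with 0.71, 0.69 and 0.71 and a fit of 0.71 ± 0.10 (adjusted p = 0.00714). Lef1, a nuclear partner of beta-catenin that is active in early lymphocytes, had 0.78, 0.73 and 0.69 and a fit of 0.72 ± 0.09 (adjusted p = 0.00497). Sox4, a transcription factor of lymphoid progenitors, had 0.295, 0.74 and 0.71 and a fit of 0.58 ± 0.11 (adjusted p = 0.0354), although neither of its 2 features passed alone. YB1 was the low array for Sox4, whereas the 3 arrays of Siglecg and Lef1 were close together. In the other direction Bcl6, a repressor of germinal centre B cells that the B-lineage list did not hold, fell. Its fit was -0.59 ± 0.09 (adjusted p = 0.00811). Listed B-lineage genes that did not pass included Blnk at 0.37, Cd22 at 0.20, Ms4a1, the CD20 antigen of more mature B cells, at 0.19, Btk at -0.02, Cd24a at -0.10, Fcer2a at -0.12 and Cr2, the complement receptor of mature B cells, at -0.21. The list median was 0.54 on YB1, 0.40 on YB2 and 0.54 on YB3 against -0.01, -0.07 and 0.02 over all genes, and -0.04 under the channel reading. The 9 calls became 5 without YB1, 3 without YB3 and 1 (Il7r) after scaling to a common spread. Pou2af1, Fcrla and Siglecg lost the call without YB1 or YB3, Foxo1 without any 1 of the bone arrays, Cd79b without YB1, YB3 or young marrow array 1, and Sox4 passed in 4 of the 9 fits. In bulk tissue fewer cells of a type and less RNA per cell cannot be told apart, nor can their opposites. The 4 measured T and NK cell genes had a median of 0.02 with 0 called, and the 3 plasma cell genes -0.02 with 0 called.

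Other genes that rose belong to chromatin, signalling and metabolism. Cecr2, a bromodomain chromatin remodelling protein, had 1.06, 0.69 and 0.85 and a fit of 0.90 ± 0.12 (adjusted p = 0.00497). Sbk1, a serine/threonine kinase, had 0.81, 0.66 and 0.74 and a fit of 0.75 ± 0.10 (adjusted p = 0.00497). Each of these was positive on all arrays by a margin larger than the differences between arrays. Smarca4, the ATPase of the BAF remodelling complex, was fitted at 0.55, the glucocorticoid-induced Glcci1 at 0.69, the platelet-activating factor hydrolase subunit Pafah1b3 at 0.75, the AMP deaminase Ampd2 at 0.49, the serine incorporator family member Serinc5 at 0.55, the endoplasmic reticulum ubiquitin ligase Syvn1 at 0.53, Ankrd10 at 0.56 and the mitochondrial protein Chchd10 at 0.52. Strn3, a striatin scaffold protein, was fitted at 0.63, but its 2 features differed: one had 0.78, 0.97 and 1.20, the other 0.14, 0.96 and -0.05. Il7r, Vpreb3, Bach2 and Cecr2 passed in all 9 fits that left out 1 array. Of the same 9 fits, Smarca4 passed in 6, Pafah1b3 and Chchd10 in 5, Strn3 in 4 and Ampd2 in 3. Ankrd10, Serinc5 and Syvn1 passed in 2. Scd1, Sbk1, Blk, Lef1 and Igfbp5 lost the call only without YB3, at 0.68, 0.70, 0.66, 0.70 and 0.78 or higher in every such fit, and Glcci1 lost it only without YB1.

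Several neutrophil and other myeloid genes fell. Of 11 listed neutrophil genes measured, 4 fell and 0 rose, beside 0.209% of all genes tested that fell, and 7 were below 0 on all 3 arrays, as were 15.8% of all 4720 genes with 3 values (10.5% were above 0 on all 3). Slpi, the secreted inhibitor of neutrophil elastase, had -0.35, -0.67 and -1.14 and a fit of -0.81 ± 0.12 (adjusted p = 0.00766). Its values on the 3 arrays were far apart, YB3 being the lowest, and the channel reading gave 0.25. Il1r2, the decoy receptor that takes up interleukin 1, had -1.005, -0.965 and -0.375 and a fit of -0.79 ± 0.16 (adjusted p = 0.0412). Here the swapped array was nearest to 0, and the channel value was -0.33. Arg2, a mitochondrial arginase, had -0.46, -0.92 and -0.73 and a fit of -0.74 ± 0.13 (adjusted p = 0.0236). Anxa1, an anti-inflammatory annexin abundant in neutrophils, had -0.30, -0.63 and -0.58 and a fit of -0.50 ± 0.10 (adjusted p = 0.0496), the weakest call of the 36. In the feature fit only Slpi of the called neutrophil genes passed (adjusted p = 0.02). Arg2 (0.0521), Anxa1 (0.092) and both Il1r2 features (0.0657 and 0.105) did not. Granule proteins below 0 on every array that did not pass were the lysozyme Lyz2 at -0.61 (adjusted p = 0.0901), cathepsin G, Ctsg, at -0.60 (adjusted p = 0.16) and proteinase 3, Prtn3, at -0.31 (adjusted p = 0.251).

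The neutrophil list median was -0.35 on YB1, -0.63 on YB2 and -0.41 on YB3, and -0.02 under the channel reading. The 4 calls became 1 without YB1, 0 without YB2, 1 without YB3, 2 without young marrow array 1, 2 without old array 2 and 6 without old array 3. Serpinb6a and Bcl6, which the list does not hold, also fell. Serpinb6a, a cytosolic serine protease inhibitor, had -0.39, -0.52 and -0.64 with a fit of -0.55 ± 0.10 (adjusted p = 0.0307). Bcl6, the repressor of germinal centre B cells, had -0.59, -0.52 and -0.67 with a fit of -0.59 ± 0.09 (adjusted p = 0.00811). Of 9 monocyte, macrophage and dendritic cell genes 1 fell, beside 0.209% of all genes: Mpeg1, a pore-forming protein of phagocytes, at -0.63, -0.87 and -0.27 (fit -0.57 ± 0.11, adjusted p = 0.0412). The list median was -0.12, and the chemokine receptor Ccr2 was at -0.53 (adjusted p = 0.0867). The lysosomal protease cathepsin D, Ctsd, fell with -0.42, -0.64 and -0.34 (fit -0.47 ± 0.09, adjusted p = 0.0412), and guanine deaminase, Gda, with -0.57, -0.82 and -0.26 (fit -0.50 ± 0.09, adjusted p = 0.0275). With 1 array left out Slpi and Bcl6 passed in 7 of 9 fits, Arg2 in 6, Il1r2 and Serpinb6a in 5, Gda in 3, and Mpeg1, Ctsd and Anxa1 in 2. In Mpeg1, Gda and Ctsd YB2 was the lowest and YB3 the nearest to 0. Bcl6 passed in the feature fit (adjusted p = 0.02), while Mpeg1, Gda, Ctsd and Serpinb6a did not (0.0749, 0.0521, 0.0727 and 0.056). Just outside the threshold lay the cell surface protein Emb at -0.76 (adjusted p = 0.0538), Foxred2 at 0.78 (adjusted p = 0.0538), the haematopoietic GTPase Rhoh at 0.71 (adjusted p = 0.0541) and the peptidase Dpp4 at 0.64 (adjusted p = 0.0541).

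Most skeletal muscle genes were lowest on YB1, and 5 of the 13 measured were below 0 on all 3 arrays, beside 15.8% of all genes. Myl1, a light chain of fast skeletal myosin, had -1.43, -0.31 and -1.42 and a fit of -1.09 ± 0.21 (adjusted p = 0.0414). In the fit of averaged genes it was the only one of the 13 to pass, beside 0.209% of all genes that fell. The call was lost without YB1, YB3, young marrow array 1 or old array 2. Over all 9 fits with 1 array left out the value lay between -1.43 and -0.86. In the feature fit Myl1 did not pass (adjusted p = 0.0927). Myoglobin, Mb, had -1.69, -0.21 and -0.89 and a fit of -0.98 (adjusted p = 0.189). Fast myosin light chain Mylpf had -1.31, -0.19 and -0.48 and creatine kinase Ckm -0.87, -0.12 and -0.53. The order of the arrays, with YB2 nearest to 0, was the same for Myl1, Mb, Mylpf, Ckm and the muscle enolase Eno3. The list medians were -0.73 on YB1, 0.10 on YB2 and -0.39 on YB3, the fitted median was -0.33 and the channel reading gave -0.11. Myl4, a light chain of atrial and embryonic muscle that is not on the list, rose instead with 0.69, 0.54 and 0.86 (fit 0.69 ± 0.12, adjusted p = 0.0236). The list gave 3 calls without YB2 and 0 without YB1 or YB3. The part of muscle RNA in the other results was not tested.

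Of 11 measured glycolysis and glycogen genes 0 passed and 7 were below 0 on all 3 arrays, beside 15.8% of all genes. Eno3 belongs to both this list and that of muscle. The list medians were -0.22 on YB1, -0.28 on YB2 and -0.16 on YB3, with a fitted median of -0.26 and, under the channel reading, -0.05. Aldolase A, Aldoa, had -0.565, -0.20 and -0.505, with a fit of -0.45 (adjusted p = 0.0667), and the muscle phosphofructokinase Pfkm -0.53, -0.19 and -0.56, with a fit of -0.42 (adjusted p = 0.16). Both were nearest to 0 on YB2, like the muscle genes. The glycogen synthase Gys1 had -0.36, -0.29 and -0.37 (fit -0.33, adjusted p = 0.184), and the ubiquitous phosphoglycerate kinase Pgk1 -0.20, -0.46 and -0.22 (fit -0.30, adjusted p = 0.341). Lactate dehydrogenase A, Ldha, was at -0.07.

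**Figure D3:**
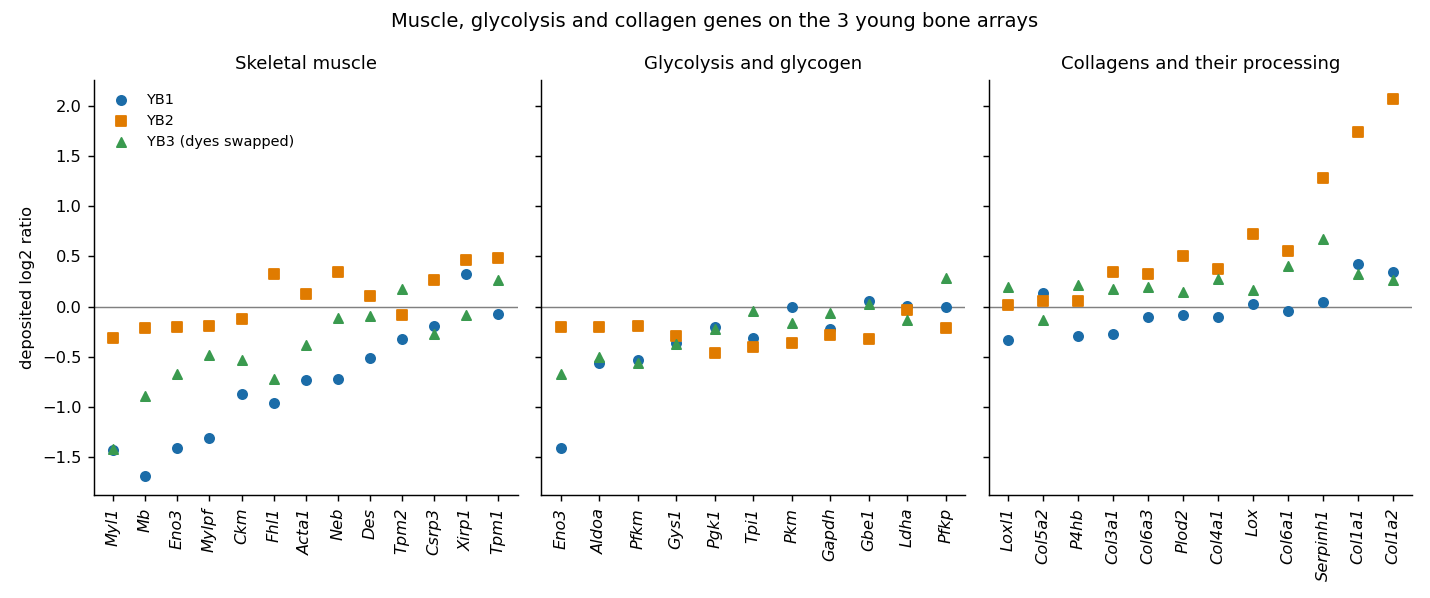
Deposited log2 ratios of the measured skeletal muscle, glycolysis and collagen genes on YB1, YB2 and YB3, ordered within each panel by the fitted value. YB1 is the lowest array for most muscle genes, down to -1.69 for Mb, while YB2 stands above the other arrays for Col1a2 and Col1a1 at 2.07 and 1.74.

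Collagen genes of bone were highest on YB2, and none of the 12 measured collagen and collagen-processing genes passed. Col1a1, a chain of type I collagen, the main protein of bone matrix, had 0.42, 1.74 and 0.32 and a fit of 0.77 (adjusted p = 0.203). Col1a2, its partner chain, had 0.34, 2.07 and 0.26 and a fit of 0.82 (adjusted p = 0.248). Serpinh1, the collagen chaperone, had 0.05, 1.28 and 0.67 and a fit of 0.68. All 3 were above 0 on every array, and YB2 alone was past 2-fold. Sparc, the matrix glycoprotein osteonectin, had 0.14, 1.33 and 0.25 and a fit of 0.54, again with YB2 apart. The collagen list medians were -0.06 on YB1, 0.44 on YB2 and 0.20 on YB3. In the same tissue the 18 matrix proteoglycans and glycoproteins had a fitted median of 0.03 with 0 called, and the 12 matrix proteases and inhibitors -0.04, Ctsd being the only call. Timp2, an inhibitor of matrix metalloproteinases, had 0.31, 0.98 and 0.36 and a fit of 0.52 (adjusted p = 0.103). The 8 osteoclast genes had a median of -0.07 with 0 called, among them the proton pump subunit Atp6v1b2 at -0.17 and the master regulator Nfatc1 at 0.02.

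Growth factor, lipid and hormone genes gave few calls. Igfbp5, a binding protein of insulin-like growth factors that osteoblasts store in matrix, rose with 0.76, 0.90 and 0.885 and a fit of 0.84 ± 0.12 (adjusted p = 0.0059), its 2 features giving 0.85 and 0.83. It was the only one of 22 genes of IGF, BMP and TGF-beta signalling to rise, and 0 fell, beside 0.545% and 0.209% of all genes. Of 13 RANKL, OPG and Wnt genes Lef1 alone rose, beside the same 0.545%, the Wnt antagonist Sfrp1 was at 0.39 (adjusted p = 0.111), and the RANKL gene Tnfsf11 was at -0.03. Of 8 adipocyte genes 2 rose, again beside 0.545% of all genes. Scd1, the desaturase that makes monounsaturated fatty acids, had 0.86, 0.90 and 0.91 and a fit of 0.85 ± 0.11 (adjusted p = 0.00497). Car3, a carbonic anhydrase abundant in fat cells and slow muscle, had 0.57, 1.61 and 0.81 and a fit of 0.95 ± 0.17 (adjusted p = 0.0275). The arrays were level for Scd1, whereas YB2 was far above the others for Car3, whose call was lost without YB2, YB3 or young marrow array 1. The fatty acid binding protein Fabp4 at 0.36 and lipoprotein lipase Lpl at 0.62 were above 0 on all arrays and did not pass. The 2 adipocyte calls became 1 without YB2 and 0 without YB3. All 9 measured sex steroid receptor, metabolism and response genes had fitted values below 0, as did 2464 of all 4775 genes. Of the 9, 4 were below 0 on all 3 arrays, beside 15.8% of all genes. The list median was -0.14 with 0 called, among them the oestrogen receptor Esr1 at -0.14 and the androgen receptor coactivator Ncoa4 at -0.25. The median over all genes was -0.01.

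Large housekeeping classes gave 0 calls. Their medians ran from -0.10 to 0.06, where the quartiles over all genes were -0.09 and 0.08. The 55 respiratory chain and ATP synthase genes had a median of -0.10 and 43 fitted values below 0, beside 2464 of all 4775 genes. The 35 proteasome genes had a median of -0.07, the 27 mitochondrial ribosome genes -0.09 and the 49 cytosolic ribosome genes 0.06. Below 0 on all 3 arrays were 16 of the 55, 11 of the 35, 9 of the 27 and 5 of the 49. Over all genes this share was 15.8%. Splicing factors (56 genes) had a median of 0.03, translation factors (39 genes) -0.02 and histones (8 genes) 0.01. Among the 39 cell cycle and DNA replication genes the median was -0.06 on YB1, -0.37 on YB2 and 0.22 on YB3. The median of the values fitted with the dye term was -0.00 in the castrated-over-sham reading and -0.19 in the channel reading. The 12 interferon response genes had the same order, at -0.09, -0.17 and 0.23, and a channel median of -0.25. In both of these lists the swapped array stood on the other side of 0. Under the channel reading 13 of the 39 and 7 of the 12 had an unadjusted p under 0.05, beside 7.33% of all genes, and 0 passed after adjustment. Of 18 cytokine genes Il1r2 alone fell, beside 0.209% of all genes, and the 16 immediate early genes gave 0 calls with a median of -0.03. Erythroid, megakaryocyte, endothelial and nerve lists had medians of 0.00, 0.11, 0.09 and -0.05 with 0 called.

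**Figure D4:**
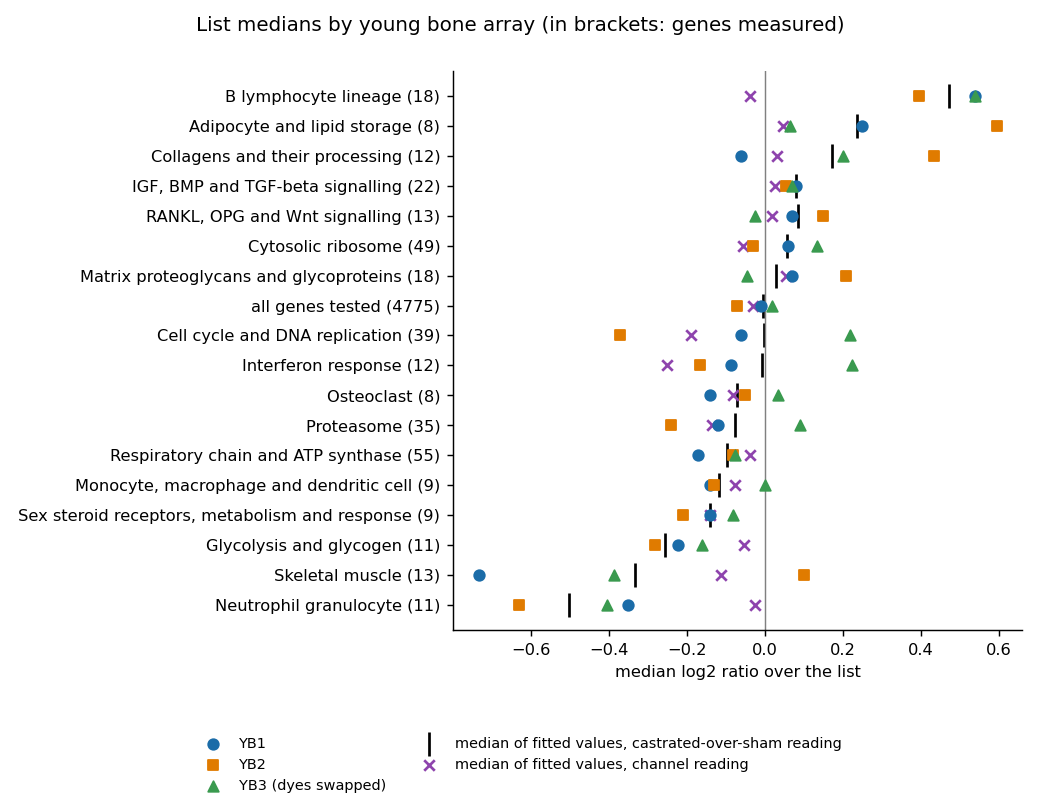
Median deposited log2 ratio of 18 gene sets, all genes included, on YB1, YB2 and YB3 (coloured points), with the median fitted value under the castrated-over-sham reading (black bar) and the channel reading (purple cross); brackets give the genes measured. The 3 arrays of the B lymphocyte list lie between 0.40 and 0.54 and those of the neutrophil list between -0.63 and -0.35, while muscle, collagen and cell cycle genes are spread over the arrays.

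The genes with the largest single ratios differed from array to array. A log2 ratio past 1 in size, a 2-fold difference, was seen for 11 genes on YB1, 21 on YB2 and 11 on YB3 of 4720 genes with 3 values, for 33 genes on exactly 1 array, and for 0 genes on all 3. On YB2 18 of the 21 were above 0, against 4 of 11 on YB1 and 5 of 11 on YB3. Muscle genes led the low end of YB1, from Mb at -1.69, and type I collagen led the high end of YB2. The immunoglobulin heavy chain gene Ighg3 led YB3 at 1.92, where YB1 had -1.33 and YB2 -0.02. Ighg3 therefore had no common sign, with a channel value of -1.27 (adjusted p = 0.308) and a castrated-over-sham value of 0.44. Other genes near the top of the channel reading were also opposite on YB3. The galactokinase-like Galk2 had one feature at 0.43, 0.78 and -0.78, a channel value of 0.69, while its second feature was at -0.01. The ubiquitin ligase subunit Skp2 had 4 features with channel values of -0.17, -0.13, -0.44 and -0.42.

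Among the 6 called features without a gene name here, feature 7388 was highest, at 1.13, 1.55 and 1.59 (fit 1.42), and feature 2555 was the only one that fell, at -0.66, -0.84 and -1.16 (fit -0.95). All 3 arrays of both lay on one side of 0. For feature 2555 the annotation lists several genes, so it was left unnamed. Its value in young marrow was -0.00, and the difference between the tissues had an adjusted p of 0.113.

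Few differences between young bone and the other specimens passed the adjustment. For 0% of 8885 features did young bone differ from young marrow (455 had an unadjusted p under 0.05, and the smallest adjusted p was 0.113). From the old specimens 1 feature differed (0.0113%). Il7r, at 1.02 in bone, was 0.89 in young marrow and 0.84 in the old specimens, Vpreb3 1.12 and 1.14 beside 1.01, and Bach2 0.91 and 0.94 beside 1.16. Of the 36 genes 32 had 1 deposited sign on all arrays with a value. The share over all genes was not computed, and the bone values that chose the 36 are part of this count. At an unadjusted p under 0.05, 8 of the 36 differed from young marrow, beside 5.47% of all genes, and 6 from the old specimens, beside 7.37%. The 36 were chosen by their bone values, which enter these differences, so the counts are a description. Such differences, none of which passed the adjustment, included Pou2af1, lower in bone at 0.71 than in young marrow at 1.07 (unadjusted p = 0.021) and in the old specimens at 1.10 (unadjusted p = 0.0146). Myl1 was at -0.15 in young marrow and 0.41 in the old specimens (difference from the old -1.51, adjusted p = 0.185). Car3 was at 0.20 and 1.41 beside 0.95 in bone, and Bcl6 at -0.27 and -0.07 beside -0.59. Creatine kinase Ckm lay below 0 on the 3 bone arrays and above 0 on the 3 old arrays, at 1.56, 0.42 and 0.55 (difference -1.35, adjusted p = 0.185). Myl1 and Ckm were among the largest differences by p, and the share of all genes with such opposite signs was not computed. The muscle list median was 0.01 in young marrow and 0.32 in the old specimens, against -0.33 in bone. The B lymphocyte list median was 0.59 in young marrow and 0.66 in the old specimens, against 0.47 in bone. For the neutrophil list it was -0.55 and -0.45, against -0.50 in bone. In young marrow and the old specimens Slpi was at -0.64 and -0.43 and Il1r2 at -0.48 and -0.54. Arg2 was at -0.55 and -0.45 and Anxa1 at -0.52 and -0.63. The B-lineage rise and the neutrophil fall were thus not particular to bone.

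Fibronectin, Fn1, an adhesive matrix glycoprotein, stood highest among the differences from young marrow, with 0.475, -0.085 and 0.43 on the bone arrays and -0.725, -0.56 and -0.87 on the marrow arrays (difference 0.99 ± 0.15, adjusted p = 0.115). Fn1 was picked by this difference, so the separation of its arrays is a description. Bone itself had a fit of 0.31 that did not pass. Against the old specimens 2 genes passed. Xist, the noncoding RNA of the inactive X chromosome, had 0.07, 0.26 and -0.25 in bone and -1.19, -1.13 and -0.98 in the old specimens (difference 1.13 ± 0.13, adjusted p = 0.00982). Matrix Gla protein, Mgp, an inhibitor of calcification, had 0.13, 0.22 and -0.16 in bone and -1.55, -1.21 and -0.80 in the old specimens (difference 1.25 ± 0.18, adjusted p = 0.0314). For Xist and Mgp the bone values lay around 0, and the old arrays were all low. The surgery being removal of the testes or its sham, the mice were males. A log ratio holds no level, so whether the Xist feature lay above background in them could not be checked. With 1 array left out Xist passed in 8 of 9 fits and was lost without YB1 (1.14, adjusted p = 0.0966), while Mgp passed in 2 of 9, those without old array 1 or old array 3. Under the channel reading the differences were 0.54 for Xist and 0.55 for Mgp (adjusted p = 0.997 for each), and with the replicate number as a block the adjusted p were 0.057 and 0.0864.

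**Figure D5:**
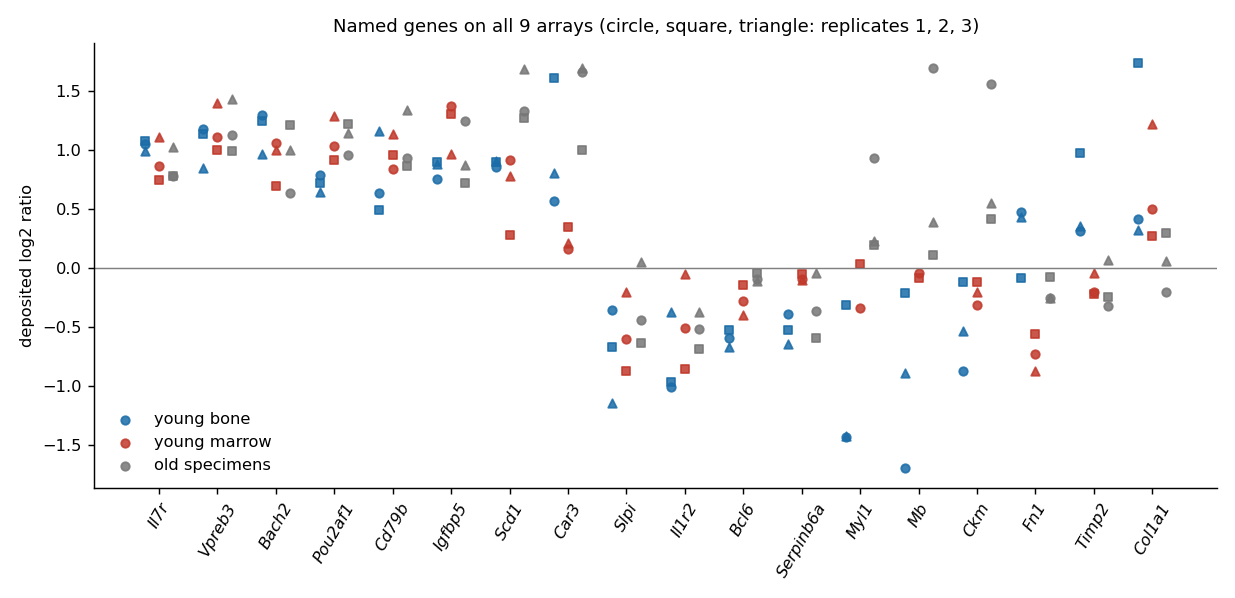
Deposited log2 ratios of 18 genes on all 9 arrays, by group (colour) and replicate (symbol). The B-lineage genes Il7r, Vpreb3 and Bach2 overlap between the groups, whereas the bone values of Myl1, Mb and Ckm lie below 0 and the old values above it, and Fn1 is lower on the young marrow arrays than on the bone arrays.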

How the data were processed

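Bone or marrow RNA of castrated and sham-operated mice was extracted with TRIZOL and RNeasy, labelled through aminoallyl cDNA and hybridised in pairs, per the labels. The deposited value table holds 1 log ratio per feature and array, read here as log2. Its log base, direction, background correction, normalisation and software are not given in the sources used here. The values were used unchanged. Probe annotation from GEO's platform table gave 1 gene for 8050 of the 11552 features (7880 by gene identifier, 170 by symbol alone), several for 672 and none for 2830, and the last 2 sets were left unnamed. Features needed values on 2 arrays of each group and 1 swapped array. Limma 3.58.1 in R 4.3.3 fitted all 9 arrays with a coefficient for each group plus 1 dye term shared by all (5 residual degrees of freedom), which was tested on simulated data, with Benjamini-Hochberg adjustment over all features or genes tested. The feature fit is the main one. The fit of genes with their features averaged is an alternative whose values the gene descriptions use. Alternatives were the channel reading, centring, scaling, array weights, filters, a robust prior, no dye term, subsets of arrays and a replicate block. Named genes were those past the threshold, the smallest p-values in each direction and reading with 1 deposited sign, up to 5 members of each list and the top differences between groups. The genes and lists were chosen with earlier results of these data known, and none of their counts is independent evidence. The design text speaks of 3 mouse pairs at each age, so bone and marrow of the young mice may share animals, though the labels do not say which. The deviations of same-numbered young bone and marrow arrays correlated at -0.09, -0.37 and -0.08 (channel reading 0.17, -0.14 and -0.22), but the swapped dye falls on different numbers in the 2 tissues, so these values do not settle whether animals are shared. The numbers were not used to pair arrays in the main fit.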

Additional observations from a re-analysis of the deposited data

Results flagged for a closer look

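Xist differed between young bone and the old specimens in the test of the difference, by 1.13 on the log2 scale. Whether its signal lay above background in these male mice could not be checked. Myl1 was below 0 on all 3 young bone arrays and above 0 on all 3 old arrays, a difference of -1.51. This opposition was not tested beyond the fitted difference given above, which did not pass the adjustment. The share of all genes with such opposite signs was not computed.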

How the results depend on the processing

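Unless a second count is named, counts are features past an adjusted p of 0.05. The 23 features of young bone became 76 with array weights, 50 without the dye term, 36 genes with features averaged, 3 with the bone arrays alone (Bach2, Il7r and feature 7388), 1 on the unswapped arrays alone (Bach2) and 1 after scaling to a common spread (feature 2555). Leaving out 1 array gave 1 to 80, the lowest without YB3 (Bach2) and the highest without old array 3, with 6 without YB1, 14 without YB2 and 52 without old array 1. Under median centring the count was 27. With the replicate number as a block it was 19, and the only feature that differed from the old specimens was lost (0). Under the channel reading 1 feature passed on the unswapped arrays alone, where both readings are the same. Of the called named features 9 turned sign under the channel reading, to -0.14 (Strn3), -0.066 (Igfbp5), -0.17 (Fcrla), -0.027 (Sbk1), -0.033 (Scd1), -0.042 (Blk), -0.0336 (Pou2af1), -0.0225 (Siglecg) and 0.25 (Slpi), and the other 8 no longer passed. The shared dye term takes up a response of 1 deposited sign in all groups, so channel values of such features are drawn toward 0 by construction. Differences from young marrow went from 0 to 5 with array weights. Differences from the old specimens went from 1 to 2 with array weights or averaged genes, to 0 with the filter on young bone only, without the dye term or on unswapped arrays, and to between 0 and 31 with 1 array left out; under the channel reading they went from 0 to 2 with array weights. The 36 averaged genes became 1 after scaling (Il7r), 11 with the bone arrays alone and 7 to 62 with 1 array left out, and 9 passed under the channel reading with array weights; these gene alternatives were chosen after seeing the data. Of 43 list medians 12 moved by more than the replicate SD under the channel reading, 7 without YB3, 6 on unswapped arrays and 5 without YB2. The cause of these changes was not tested. Log ratios without intensities give no signal over background, so dim features could not be told apart from bright ones.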
